A study of Rattus with 6 samples.

Results

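A set of 10 interferon-induced genes was followed in cultured vascular smooth muscle cells. Their products act at membranes, directly on viruses or on immune signalling. The genes were Ifi27, Ifi27l2a, Ifi35, Bst2, Mx1, Mx2, Ifitm2, Ifitm3, Trim30a and Apol9b. They were chosen by name from the 54012 genes of the deposited table, and each name matched 1 row. The names were picked with results of the same comparison known, so the differences below describe these genes and no test of them stands as independent evidence. RNA sequencing covered 6 libraries of cultures labelled as primary vascular smooth muscle cells from aorta. Each of the 6 cultures received angiotensin II (Ang II), a vasoconstrictor peptide, and grew in medium with fetal bovine serum. The 3 si-NC libraries carry the genotype label WT and the small interfering RNA labelled si-NC, which served as the comparison group. The 3 si-CDCP1 libraries carry the genotype label CDCP1 knockdown and were given Ang II after the knockdown of CDCP1, a transmembrane protein phosphorylated by Src family kinases. No culture without Ang II was analysed here, and the labels give no animal, strain, age or dose.

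Interferons are secreted when a cell senses foreign nucleic acid. They bind receptors that activate JAK kinases, and the signal that follows switches on a large set of genes. Many of these genes have a low constant level in fibroblasts and muscle cells without infection, kept up by small amounts of interferon beta. The genes described here are among the effectors at the end of that pathway. Some block viral entry or release at membranes, some bind viral nucleoproteins, and some adjust the interferon or NF-kB signal itself.

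The libraries held 16050517 to 19771638 reads in listed genes. The values are FPKM, that is, fragment counts divided by gene length and by library size, so levels can be set side by side between genes. Cdcp1 itself had 0 to 5 reads per library in both groups, and the labels could therefore not be checked by the knockdown. The samples are labelled as rat, while the table gives mouse genes on the mouse build mm10. Of the 10 names, 7 also occur in the RefSeq rat gene table (assembly GRCr8), and Ifi27l2a, Trim30a and Apol9b do not occur there under those names. Of 8 smooth muscle markers 2 averaged at least 1 FPKM: Acta2, at 34.4 to 64.2 FPKM, and Smtn, at 8.02 to 10.3 FPKM. Cnn1 and Myh11 were under 0.1 FPKM, so most of these markers did not bear out the labelled cell type. Of 5 fibroblast markers 3 averaged at least 1 FPKM (Pdgfra, Dcn and Col1a1). The 5 endothelial markers had a summed level of 0.676 to 0.742 FPKM (si-NC) and 0.802 to 0.874 FPKM (si-CDCP1). Those of 5 macrophage markers summed to 2.88 to 3.07 and 2.67 to 3.25 FPKM, with Adgre1, Csf1r and Itgam under 0.1 FPKM, and all 5 T and B cell markers were under 0.1 FPKM. In bulk RNA, fewer cells of a type and less RNA per cell cannot be told apart. Library si-CDCP1 3 stood apart: its chi-square per degree of freedom against the other si-CDCP1 libraries was 12.4 and 16.3, while that of the other replicate pairs lay between 2.86 and 3.34. The log2 difference of each of the 10 genes is therefore given with and without it.

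The 10 genes covered a wide range of levels. In si-NC the order by mean FPKM was Ifitm3, Bst2, Ifi27, Apol9b, Ifitm2, Ifi27l2a, Ifi35, Trim30a, Mx2 and Mx1. Ifitm3 ranked 16 and Bst2 ranked 36 among all 54012 genes. Mx1 ranked 12559. Of the neighbours in this order, Ifi27l2a and Ifi35 overlapped between si-NC libraries (36.98 to 39.6 against 34.97 to 38.3 FPKM), as did Ifi35 and Trim30a (33.6 to 35.96 FPKM in Trim30a), and the other neighbours did not. The FPKM of the 10 genes summed to 2099 to 2149 in the si-NC libraries and 2014 to 2072 in the si-CDCP1 libraries. This was 0.744% to 0.767% and 0.689% to 0.703% of all FPKM, a share that also depends on the total FPKM of each library. Most of the sum was Ifitm3, Bst2, Ifi27 and Apol9b. Of these, Ifitm3 and Apol9b had lower means in si-CDCP1, and Bst2 and Ifi27 had higher ones.

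With all 6 libraries 4 of the 10 genes had positive and 6 had negative log2 differences, while 52.3% of all tested genes had positive ones. Without si-CDCP1 3, which left Mx1 under the filter, 2 of 9 were positive and 7 negative (52.2% of all tested genes positive). Limma's moderated test over the 12080 genes that reached a mean of 1 FPKM called 0 of the 10 at an adjusted p of 0.05 (Benjamini-Hochberg), where 0% of all genes were called. At an unadjusted p under 0.05, 3 of the 10 were lower (Ifi27l2a, Ifitm3 and Apol9b) and 0 were higher, while 5.31% of all genes were lower, 8.94% higher and 14.3% in either direction. The groups did not overlap for the same 3 genes, each lower in si-CDCP1, where 10.6% of all genes were lower and 14.4% higher in this way. The median log2 difference of the 10 genes was -0.04, and that of all tested genes was 0.01. With each library scaled to the same FPKM sum, the median of the 10 was -0.10, and all genes at an unadjusted p under 0.05 split into 537 higher and 1301 lower in place of 1080 and 642. Without si-CDCP1 3 the median of the 9 genes still above the filter was -0.15, with 6 lower and 1 higher at an unadjusted p under 0.05 (16.5% of all genes in either direction), where 5.78% and 10.7% of all genes were lower and higher. Limma still called 0 of them. Limma voom on whole reads recovered from the FPKM called 0 of the 10 with all 6 libraries, where 0.0348% of all genes were called. It called 5 without si-CDCP1 3, where 3.46% of all genes were called and where 7 of the 10 and 17.1% of all genes had an unadjusted p under 0.05: Ifi27 higher (2.4% of all genes were called higher) and Ifi27l2a, Trim30a, Ifitm3 and Apol9b lower (1.06% were called lower). Limma with library weights on all 6 libraries gave si-CDCP1 1, 2 and 3 weights of 0.60, 5.11 and 0.165, so its si-CDCP1 level rested mostly on si-CDCP1 2. It called the same 5 genes in the same directions, where 7.16% of all 12080 genes were called (558 higher and 307 lower). In this fit 6 of the 10 and 29.1% of all genes had an unadjusted p under 0.05. Since this contrast was in view when the genes were chosen, nothing is read from these counts.

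**Figure D1:**
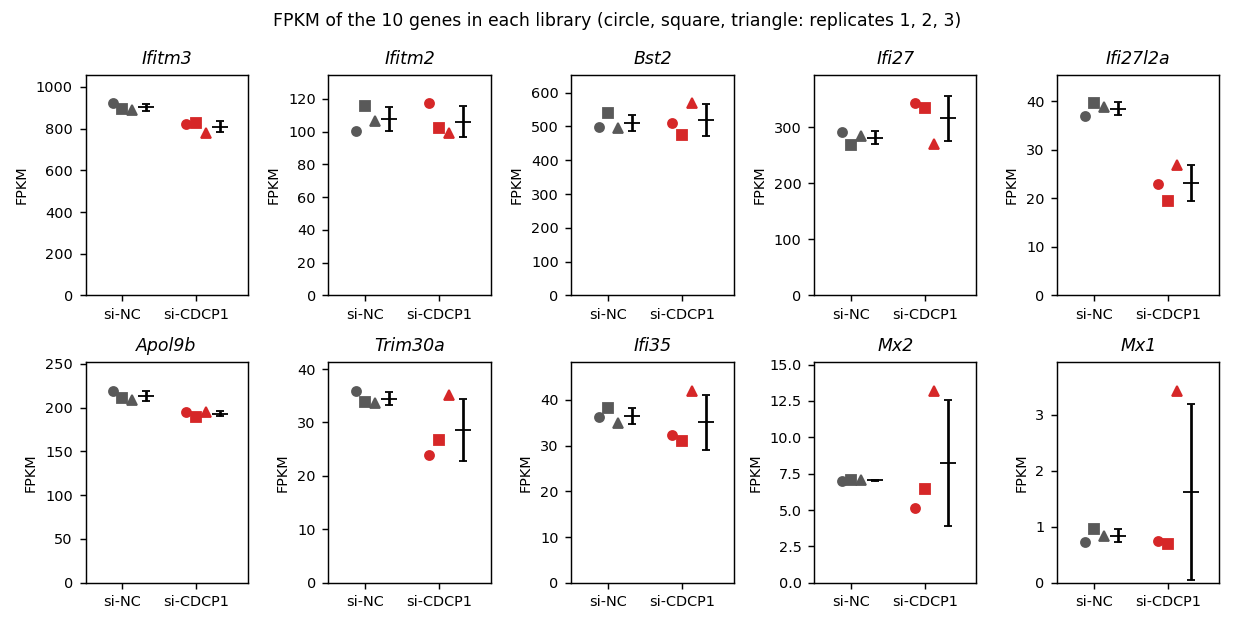
FPKM (vertical axes, each from 0) of the 10 genes in the 3 si-NC libraries (grey) and the 3 si-CDCP1 libraries (red); circles, squares and triangles are replicates 1, 2 and 3, and the bar beside each group is its mean and SD (n = 3). The si-NC points of Ifi27l2a, Ifitm3 and Apol9b all lie above the si-CDCP1 points, and Mx1 and Mx2 are high in si-CDCP1 3.

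Ifi27l2a had the largest proportional difference of the genes lower in si-CDCP1. It encodes a short hydrophobic protein of the Ifi6/Ifi27 family and is widely used as a marker of interferon exposure in mouse tissue. Ifi27l2a (ENSMUSG00000079017, protein coding, mm10 chromosome 12, 103442167 to 103443680, minus strand, 463 bases in the gene model) was at 36.98, 39.6 and 38.8 FPKM in si-NC 1, 2 and 3 and at 23.1, 19.5 and 26.9 FPKM in si-CDCP1 1, 2 and 3. Every si-CDCP1 library was thus below every si-NC library, si-CDCP1 3 included, which was the least low of its group. The group means were 38.5 ± 1.34 and 23.1 ± 3.69 FPKM (SD, n = 3 each), a ratio of 0.602. The log2 difference on the log2(FPKM + 1) scale was -0.72 (SE 0.11, limma adjusted p = 0.217), and -0.83 (SE 0.074, adjusted p = 0.0561) without si-CDCP1 3. Over 15 alternatives the adjusted p ranged from 0.000836 to 0.643, and the difference stayed between -0.91 and -0.61. The values stand for 147 to 344 reads, the fewest of the 10 genes after Mx1. The samples are labelled as rat, and the name Ifi27l2a does not occur in the rat gene table. How reads of related genes were assigned is not given in the sources used here, so the values of Ifi27l2a are uncertain too.

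Ifi27, the neighbour of Ifi27l2a, differed in the other direction. It encodes a family member of the mitochondrial and nuclear membrane that has been tied to apoptosis and to export of nuclear receptors. Ifi27 (ENSMUSG00000064215, protein coding, chromosome 12, 103434211 to 103440239, plus strand) lies 1927 bases from Ifi27l2a, and the pair point towards each other. It was at 291.6, 268.6 and 284 FPKM in si-NC 1, 2 and 3 and at 343, 335 and 269 FPKM in si-CDCP1 1, 2 and 3. The first and second si-CDCP1 libraries were above all si-NC libraries, and si-CDCP1 3 lay within their range. The log2 difference was 0.16 (SE 0.096, limma adjusted p = 0.459) with 6 libraries and 0.27 (SE 0.043, adjusted p = 0.0815) without si-CDCP1 3. The FPKM ratio of Ifi27l2a to Ifi27, which does not depend on library scaling, was 0.127, 0.147 and 0.136 in si-NC 1, 2 and 3. It was 0.0674, 0.0581 and 0.0997 in si-CDCP1 1, 2 and 3, below every si-NC library. That follows from the levels of both genes given above, so the ratio is no separate evidence. The related Ifi27l2b, on the other side of Ifi27l2a, had means of 0.138 (si-NC) and 0.299 FPKM (si-CDCP1), under 1 FPKM in both groups.

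Ifitm3 and Ifitm2 encode small membrane proteins that stop enveloped viruses from fusing with endosomes. Ifitm3 (ENSMUSG00000025492, protein coding, chromosome 7, 141009586 to 141010770, minus strand) was at 920.9, 895 and 888 FPKM in si-NC 1, 2 and 3 and at 821, 828 and 777 FPKM in si-CDCP1 1, 2 and 3. The groups did not overlap, and si-CDCP1 3 was the lowest library. The means were 901 ± 17.1 and 809 ± 27.5 FPKM (SD, n = 3 each). The log2 difference was -0.16 (SE 0.050, limma adjusted p = 0.298), and -0.13 (SE 0.034, adjusted p = 0.168) without si-CDCP1 3. Ifitm2 (ENSMUSG00000060591, protein coding, chromosome 7, 140954837 to 140955987, minus strand), 53598 bases away, was at 100.6, 115 and 106 FPKM in si-NC and at 117, 102.1 and 99.01 FPKM in si-CDCP1. Its groups overlapped, with a log2 difference of -0.02 (SE 0.081) that was 0.03 (SE 0.078) without si-CDCP1 3. The ratio of Ifitm3 to Ifitm2 lay between 7.76 and 9.15 in si-NC and between 7.01 and 8.11 in si-CDCP1, and these ranges overlap. Ifitm1, the third classical family member, averaged 0.0661 and 0.110 FPKM and was near 0 in both groups.

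Bst2 encodes tetherin, which holds budding virus particles on the cell surface. Bst2 (ENSMUSG00000046718, protein coding, chromosome 8, 71534255 to 71537456, minus strand) was at 499.5, 539 and 497 FPKM in si-NC 1, 2 and 3 and at 511, 475 and 568 FPKM in si-CDCP1 1, 2 and 3. The groups overlapped, and si-CDCP1 3 was the highest library. The log2 difference was 0.02 (SE 0.076), and -0.05 (SE 0.053) without si-CDCP1 3. It was -0.04 with equal FPKM sums, so that Bst2 had no direction that held across scalings.

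**Figure D2:**
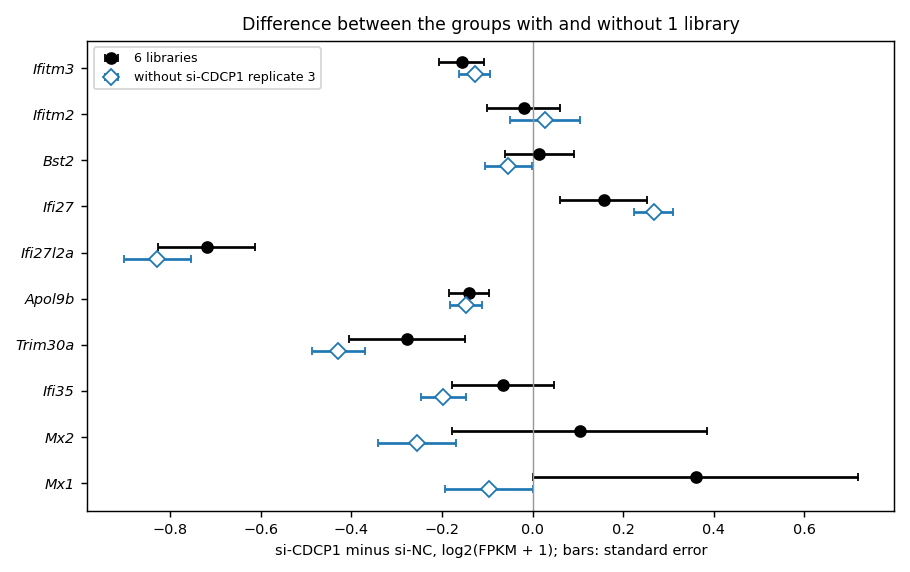
Log2 difference, si-CDCP1 minus si-NC, on the log2(FPKM + 1) scale (horizontal axis) with its standard error for each gene, with all 6 libraries (black circles) and without si-CDCP1 3 (open blue diamonds; Mx1, which is under the filter there, comes from the fit without a filter). Without the library Mx1, Mx2 and Bst2 go from positive to negative, Ifitm2 goes from negative to positive, and Ifi27l2a moves from -0.72 to -0.83.

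Mx1 and Mx2 encode dynamin-like GTPases that trap incoming viral ribonucleoproteins, Mx1 in the mouse nucleus and Mx2 in the cytoplasm. Their transcripts depend closely on type I and type III interferon. Mx1 (ENSMUSG00000000386, protein coding, chromosome 16, 97447035 to 97462907, minus strand) was at 0.724, 0.959 and 0.828 FPKM in si-NC 1, 2 and 3 and at 0.745, 0.690 and 3.43 FPKM in si-CDCP1 1, 2 and 3. Only si-CDCP1 3 exceeded 1 FPKM, and Mx1 passed the filter on the mean through that library alone. The reads were 53, 57 and 54 in si-NC and 47, 41 and 195 in si-CDCP1. The share of reads in si-CDCP1 3 was 4.77 times that in si-CDCP1 1 and 2 together, with an exact binomial 95% interval of 3.69 to 6.21 that covers counting error only. The log2 difference between the groups was 0.36 (SE 0.36, limma adjusted p = 0.644), and -0.10 (SE 0.097) without si-CDCP1 3 in the fit that keeps low genes.

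Mx2 showed the same high library. Mx2 (ENSMUSG00000023341, annotated in the table as a polymorphic pseudogene, chromosome 16, 97535308 to 97560900, plus strand) was at 6.98, 7.06 and 7.07 FPKM in si-NC 1, 2 and 3 and at 5.11, 6.42 and 13.2 FPKM in si-CDCP1 1, 2 and 3. The first and second si-CDCP1 libraries were below all si-NC libraries and si-CDCP1 3 was above them. In reads, si-CDCP1 3 held 2.30 times the share of si-CDCP1 1 and 2 (exact binomial 95% interval 2.07 to 2.55). The log2 difference was 0.10 (SE 0.28) with all libraries and -0.26 (SE 0.087, limma adjusted p = 0.237) without si-CDCP1 3. The genes lie 72400 bases apart on opposite strands. The ratio of Mx2 to Mx1 was between 7.36 and 9.65 in si-NC, 6.87 and 9.30 in si-CDCP1 1 and 2, and 3.85 in si-CDCP1 3, so Mx1 exceeded its level in the other libraries by a larger factor than Mx2 did.

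Trim30a, Ifi35 and Apol9b act on signalling or at intracellular membranes. Trim30a, a RING-finger TRIM protein that restrains NF-kB signalling downstream of Toll-like receptors, is ENSMUSG00000030921 (protein coding, chromosome 7, 104409025 to 104465193, minus strand). It was at 35.96, 33.9 and 33.6 FPKM in si-NC 1, 2 and 3 and at 23.9, 26.8 and 35.1 FPKM in si-CDCP1 1, 2 and 3. The first and second si-CDCP1 libraries were below every si-NC library, whereas si-CDCP1 3 was within the si-NC range. The log2 difference was -0.28 (SE 0.13, limma adjusted p = 0.371) and -0.43 (SE 0.059, adjusted p = 0.0718) without si-CDCP1 3. Its relatives in the same chromosome 7 cluster gave 14.2 ± 0.60 and 12.2 ± 2.70 FPKM for Trim30d, 26.7 ± 0.618 and 21.6 ± 2.05 FPKM for Trim12c, and 6.03 ± 0.165 and 4.72 ± 0.780 FPKM for Trim12a (SD, n = 3 each, si-NC first). Values of Trim30d, Trim12c and Trim12a in si-CDCP1 1 and 2 were below all si-NC values (16.2% of all tested genes). In si-CDCP1 3, Trim12c and Trim12a were also below all si-NC values, at 23.7 and 5.62 FPKM (10.6% of all tested genes over 6 libraries). Trim30d was highest there, at 15.3 FPKM. The log2 differences of Trim30d, Trim12c and Trim12a were -0.21, -0.29 and -0.30 with 6 libraries. Without si-CDCP1 3 they were -0.37, -0.36 and -0.41. Trim34a averaged 5.98 and 5.88 FPKM, with a log2 difference of -0.05 with 6 libraries and -0.24 without si-CDCP1 3. Trim30b and Trim30c averaged under 0.1 FPKM. How reads shared by these similar genes were assigned is not given in the sources used here, so the values of single TRIM genes are uncertain.

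Ifi35 encodes a cytoplasmic partner of Nmi that modulates innate immune signalling. Ifi35 (ENSMUSG00000010358, protein coding, chromosome 11, 101448407 to 101458698, plus strand) was at 36.1, 38.3 and 34.97 FPKM in si-NC 1, 2 and 3 and at 32.4, 30.9 and 42.0 FPKM in si-CDCP1 1, 2 and 3. As for Mx2, the first and second si-CDCP1 libraries were the lowest and si-CDCP1 3 the highest of all 6. The log2 difference was -0.07 (SE 0.11) and -0.20 (SE 0.049, limma adjusted p = 0.154) without si-CDCP1 3. Nmi averaged 17.7 ± 0.818 and 19.4 ± 4.42 FPKM (SD, n = 3 each), and it too was highest in si-CDCP1 3. An antisense gene, Gm11626, overlaps Ifi35 and averaged 0.712 FPKM. Whether the counting used strand is not given in the sources used here.

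Apol9b encodes a member of the apolipoprotein L family, of which mouse has an expanded cluster. Apol9b (ENSMUSG00000068246, protein coding, chromosome 15, 77729039 to 77736382, plus strand) was at 219, 211 and 208 FPKM in si-NC 1, 2 and 3 and at 194.8, 189.6 and 194.7 FPKM in si-CDCP1 1, 2 and 3. The groups did not overlap. The means were 213 ± 5.80 and 193 ± 2.98 FPKM (SD, n = 3 each), and the log2 difference was -0.14 (SE 0.044, limma adjusted p = 0.298) with 6 libraries and -0.15 (SE 0.036, adjusted p = 0.152) without si-CDCP1 3. Its near-identical copy Apol9a averaged 93.1 ± 3.98 and 85.0 ± 3.19 FPKM, and the ratio of Apol9b to Apol9a was 2.29 ± 0.0546 in si-NC and 2.27 ± 0.115 in si-CDCP1 (SD, n = 3 each). The gene model of Apol9a is 5953 bases long and that of Apol9b 1821 bases, so the FPKM of the pair divide by different lengths, and reads could be shared between them.

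**Figure D3:**
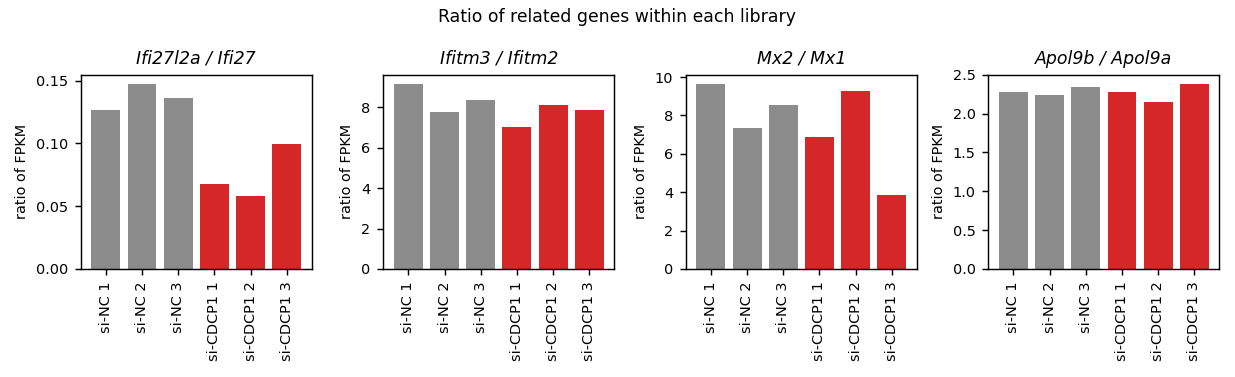
Ratio of FPKM between related genes (vertical axes, each from 0) in each of the 6 libraries, with si-NC in grey and si-CDCP1 in red. Ifi27l2a over Ifi27 is lower in all 3 si-CDCP1 libraries, which restates the levels of these genes. Mx2 over Mx1 is lowest in si-CDCP1 3 (3.85), and Apol9b over Apol9a stays between 2.15 and 2.38.

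The genes fell into different patterns over the libraries. Mx2, Ifi35 and Bst2 were highest in si-CDCP1 3 of all 6 libraries, against 34% of all tested genes. Mx1 was highest there too, but it passed the filter only through that library, so it is not set against this share. Ifitm2 and Ifitm3 were lowest there, against 30% of all tested genes. The log2 difference of si-CDCP1 3 from the mean of si-CDCP1 1 and 2 was 1.37 for Mx1, 1.08 for Mx2, 0.46 for Trim30a, 0.40 for Ifi35, 0.33 for Ifi27l2a and 0.21 for Bst2. It was 0.02 for Apol9b, -0.08 for Ifitm3, -0.14 for Ifitm2 and -0.33 for Ifi27. In that library the summed level of the smooth muscle markers was 75.9 FPKM, against 46.0 to 50.4 FPKM in si-NC. Acta2 made up most of this sum, at 64.2 FPKM there and 34.4 to 41.97 FPKM in the other 5 libraries. Smtn, Myocd and Myh11 were also highest in si-CDCP1 3, at 10.3, 0.439 and 0.0592 FPKM. Tagln, Des and Lmod1 were lowest there, at 0.0322, 0.341 and 0.503 FPKM, and Cnn1 lay between. The Tagln and Myh11 values in that library stand for 1 and 7 reads. The part of these markers in the results was not tested. Leaving si-CDCP1 3 out, 6 of the 10 genes were below their lowest si-NC value in both remaining si-CDCP1 libraries (16.2% of all tested genes), and 1, Ifi27, was higher in both (19.9%).

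**Figure D4:**
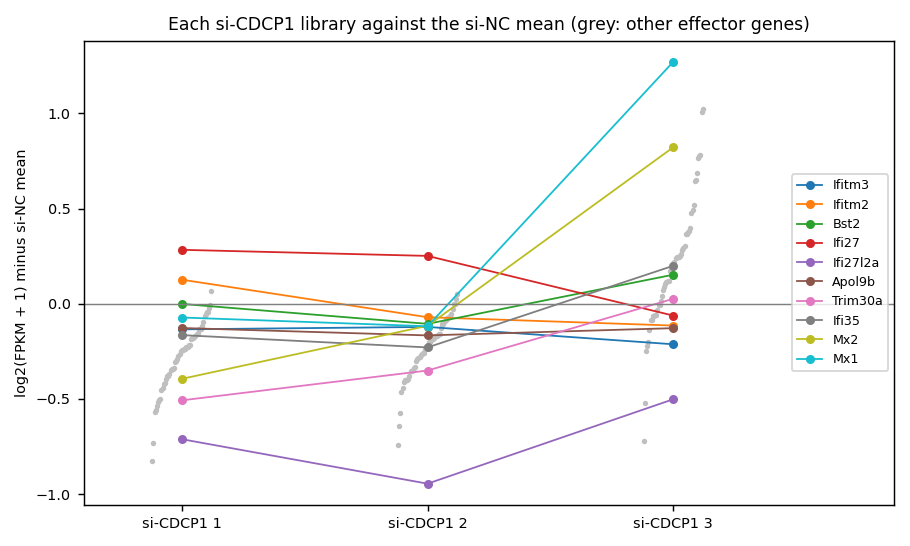
Log2(FPKM + 1) of each si-CDCP1 library minus the mean of the 3 si-NC libraries (vertical axis) for the 10 genes (coloured lines) and for 53 other interferon-induced effector genes (grey points, sorted within each library). Ifi27l2a lies below 0 in all 3 libraries, and Mx1 and Mx2 lie near or below 0 in the first and second and far above it in si-CDCP1 3.

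Likeness between profiles was measured as the root mean square distance of the log2(FPKM + 1) values, each centred on its mean over the 6 libraries. Among the 10 genes Ifitm3 and Apol9b were closest (0.0390 log2 units), and Ifi27l2a and Mx1 farthest apart (0.644). Of the 12070 other tested genes, those nearest to the mean profile of the 10 were Ildr2, Oas1a, Spg7, Glis3 and Trim26, at distances of 0.0204 to 0.0319 where the median gene was at 0.154. Nearest to Ifi27l2a were Oas3 (0.125), an oligoadenylate synthetase, and the pseudogene Gm9574 (0.13). Nearest to Mx1 were Ifit2 (0.105) and Ifit1 (0.128), both interferon-induced inhibitors of translation. Bst2 was closest to Pik3cb (0.0148) and Tmbim1 (0.0265), and Ifitm3 to Dck (0.0137) and Slc6a6 (0.0163), where the distances are small because these genes vary little. All points share the same 6 libraries.

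The remaining genes of the pathway were followed in lists that do not contain the 10 genes. Of 60 other interferon-induced effectors and restriction factors 53 were tested, and limma called 0 of them. At an unadjusted p under 0.05 8 were lower and 0 higher (5.31% and 8.94% of all genes). Negative log2 differences were seen in 40 of the 53 (median -0.12), while 52.3% of all tested genes had positive ones. In si-CDCP1 3, 36 of the 53 were the highest of all 6 libraries, against 34% of all tested genes. Without that library 51 of 53 had negative differences (median -0.22), while 52.2% of all tested genes had positive ones. At an unadjusted p under 0.05 41 were then lower and 0 higher (5.78% and 10.7% of all genes), and limma again called 0. Voom called 2 of 57 lower and 0 higher with all 6 libraries (0.0348% of all genes were called), and 35 of 57 lower and 0 higher without si-CDCP1 3 (1.06% and 2.4% of all genes). Library weights on all 6 libraries, which rest mostly on si-CDCP1 2 in that group, called 24 lower and 0 higher. Of all 12080 genes 307 were called lower and 558 higher in that fit (7.16% in either direction). Oas2 and Oas3, which make the activator of RNase L, had the smallest p among the lower ones: Oas2 ranged from 26.7 to 29.7 FPKM (si-NC) and from 15.7 to 16.9 FPKM (si-CDCP1), and Oas3 at 7.40 to 8.48 and 4.34 to 5.18 FPKM. Among those with positive differences the smallest p belonged to Zc3hav1, an antiviral RNA-binding protein, and Oasl1, with 93.8 and 107.1 FPKM in si-CDCP1 3 and 69.2 to 74.3 and 58.6 to 66.8 FPKM in the other 5 libraries.

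Of the genes that carry the interferon signal, 33 of 41 were tested and limma called 0. At an unadjusted p under 0.05 with all 6 libraries, 5 were lower and 1 higher, where 5.31% of all genes were lower and 8.94% higher. Without si-CDCP1 3, 11 were lower and 1 higher, where 5.78% of all genes were lower and 10.7% higher. Voom called 1 of 34 lower with all 6 libraries, where 0.0348% of all genes were called in either direction. It called 8 of 34 lower without si-CDCP1 3, where 1.06% of all genes were called lower and 2.4% higher. In both fits 0 of the 34 were called higher. The 6 interferon ligand genes in the list averaged under 1 FPKM and were not tested. The counts by role that follow are from limma with all 6 libraries. Of the 6 receptor genes 0 were lower or higher at an unadjusted p under 0.05, and the same held for the 3 JAK kinases. Of 9 transcription factors 1 was lower, Irf7, which amplifies the interferon response, at 70.8 to 76.3 FPKM (si-NC) and 51.7 to 52.9 FPKM (si-CDCP1). Of 10 sensors of nucleic acid and their adaptors 4 were lower, with the smallest p for Zbp1, at 19.1 to 19.8 and 13.8 to 15.2 FPKM. Of 5 inhibitors 1 was higher, Ptpn2, a phosphatase that acts on JAK and STAT proteins, at 14.3 to 14.7 and 15.9 to 19.1 FPKM. Ifngr2, a subunit of the receptor for interferon gamma, was at 13.01 to 14.2 and 14.5 to 17.8 FPKM. The signs turned in part on si-CDCP1 3. With all 6 libraries 5 of the 9 transcription factors had positive and 4 negative log2 differences (median 0.01), and 7 of the 10 sensors had negative ones (median -0.14). Without that library all 9 transcription factors and 9 of 10 sensors had negative differences, with medians of -0.08 and -0.19. Positive ones were seen in 3 of 6 receptors, 2 of 3 kinases and 2 of 5 inhibitors. In that fit 3 transcription factors and 7 sensors were lower at an unadjusted p under 0.05, and of the inhibitors 1 was lower and 1 higher. Of all tested genes 52.3% had positive differences with 6 libraries and 52.2% without si-CDCP1 3.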

How the data were processed

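The authors deposited 1 table of FPKM for the 6 libraries, with mouse Ensembl identifiers, positions and gene lengths, per the file headers. The genome build is mm10, per the submitters' processing notes. Which aligner, counting tool and strand setting were used is not given in the sources used here. Column names were matched to sample titles. FPKM times gene length gave whole multiples of 1 step in each library (100% of values within 0.01 of a whole read), and these reads were used in voom. A floor of 3 reads corresponds to 0.323 to 0.415 FPKM for Ifi27l2a and 0.0410 to 0.0527 FPKM for Mx1, and such floors and intervals cover counting error only.

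The 10 genes, the lists and the tests were chosen with earlier results of these data known. The named genes are the 10, a list of close relatives, the 2 genes of smallest p in each direction of 2 pathway lists, and the nearest profiles. Genes whose mean reached 1 FPKM were tested in limma 3.58.1 (R 4.3.3) on log2(FPKM + 1). The test was two-sided with an intensity trend, and p-values were adjusted over all genes by Benjamini-Hochberg at 0.05. This scale understates the change of low genes. Voom took genes with 10 or more reads in 3 libraries, and its library totals were those implied by the steps. Listed reads were 104% of this total for si-CDCP1 3, against 98.4% for all si-NC libraries and 99.85% to 99.9% for the other si-CDCP1 libraries, so the deposited FPKM were not scaled to the sum of listed reads. Nothing in the labels says that replicates were separate animals or isolations. The p-values then reflect the spread among these 6 libraries alone, and that spread may be technical. The test was checked on simulated data. No gene or promoter sequence was used here.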

Additional observations from a re-analysis of the deposited data

How the results depend on the processing

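The 15 alternatives gave 148 values for single genes, of which 122 kept their sign and side of the threshold, 10 passed it (Ifi27, Ifi27l2a, Ifitm3, Trim30a and Apol9b, under voom without si-CDCP1 3 and under library weights) and 16 changed sign, in 5 genes. Ifi27, Ifi27l2a, Ifitm3, Trim30a and Apol9b kept their sign under all 15.

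Leaving out 1 library at a time, the median log2 difference ranged from -0.147 (9 genes, without si-CDCP1 3) to 0.0115 (10 genes, without si-CDCP1 2). The genes called over all genes ranged from 0 to 1 and those at an unadjusted p under 0.05 from 913 to 2131. Members at that p ranged from 1 to 7 (7 of 9 without si-CDCP1 3, 1 without si-NC 1). Bst2 then ranged from -0.0533 to 0.0758, Ifi35 from -0.197 to 0.0173, Mx2 from -0.255 to 0.353 and Ifitm2 from -0.0928 to 0.0321.

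With voom without si-CDCP1 3, 493 genes were called (342 higher, 151 lower), 5 of the 10 were called, 7 had an unadjusted p under 0.05, and their median was -0.17. Bst2 was then at -0.0513, Mx1 at -0.196, Mx2 at -0.301 and Ifitm2 at 0.0346. With library weights, which gave si-CDCP1 3 a weight of 0.165 and si-CDCP1 2 one of 5.11, 865 genes were called and 3511 had an unadjusted p under 0.05. Of the 10 genes 5 were then called (7.16% of all genes), 6 had an unadjusted p under 0.05, and the median was -0.12, with Bst2 at -0.0824, Mx1 at -0.0685 and Mx2 at -0.118. The genes called over all genes numbered 7 with no filter, 4 with a mean of at least 5 FPKM, 1 with equal FPKM sums, 1 with a median log ratio of 0 and 5 with voom on 6 libraries. Bst2 was at -0.0391 with equal sums. The cause of these shifts was not tested.

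With the replicate number as a block 1 gene was called, 0 of the 10. Same-numbered libraries had correlations of deviations of -0.02, 0.0265 and 0.0223, and the labels state no pairing. With 3 libraries in each group, these correlations cannot settle whether the numbers pair the samples.

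Mx1 rests on 41 to 195 reads a library, the fewest of the 10 genes.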
